A study of Mus musculus with 12 samples.

Results

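The core genes of the Polycomb repressive complexes were followed in laser-captured mouse oocytes from primordial and primary follicles, with and without dorsomorphin (DM), a compound that inhibits the energy sensor AMPK. They were 10 genes of the 55401 in the count table, chosen by name as the core of Polycomb repressive complex PRC2 (*Ezh1*, *Ezh2*, *Eed*, *Suz12*, *Rbbp4* and *Rbbp7*) and of PRC1 (*Ring1*, *Rnf2*, *Bmi1* and *Cbx2*). All 10 were found in the table and all had counts in at least 1 library. *Ezh1* had been noted for a response to DM that differed between the follicle stages in these same libraries, so its values are described without a test, and the tests concern the other 9 genes.

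Polycomb proteins keep genes silent through modification of histones. PRC2 methylates a lysine of histone H3 (the H3K27 mark) through its catalytic subunit, which is either EZH2 or its paralog EZH1, and it needs EED and SUZ12 for activity, whereas the histone-binding proteins RBBP4 and RBBP7 also belong to other chromatin complexes. PRC1 attaches ubiquitin to histone H2A through RING1 or RNF2 (RING1B), paired with a PCGF protein such as BMI1, and chromobox proteins such as CBX2 bind the mark that PRC2 leaves. In oocytes, both complexes are known for their part in setting the chromatin state that is passed on to the embryo.

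The ovaries came from female F1 mice (C57BL/6JRj x CBA/JRj in the study, C57Bl/6j x CBA/J in the labels) aged 7 to 8 days. These ovaries were cultured for 5 days with the solvent DMSO (control) or with DM. Oocytes were cut from fixed, paraffin-embedded and stained sections by laser capture microdissection, 200 were pooled for each library, and their RNA was amplified before sequencing. The 4 groups, primordial control, primordial DM, primary control and primary DM, had 3 libraries each, and every group shared the strain, the culture and the capture. The labels call the control a sham treatment and the material in vivo, whereas the study describes cultured ovaries, and the latter description is used here.

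Depth was from 14034586 to 42639326 counts per library, and values are given as counts or as CPM, counts scaled to the library's total. Between 32.1% and 91.0% of the 8500 genes that passed the filter on low counts over all 4 groups reached 10 counts in a library, with the fewest in primary control replicate 3 and the most in primordial control replicate 1. Of 14 oocyte markers, 9 to 12 reached 10 counts in the primordial control libraries, 2 to 9 in primordial DM, 7 to 11 in primary control and 2 to 7 in primary DM. Their summed level ranged from 27.7 to 1279 CPM, 6.84 to 1074 CPM, 34.7 to 1425 CPM and 56.1 to 1115 CPM in the same order. The summed level of 10 granulosa cell markers was from 955 to 2416 CPM in primordial control, 172 to 2044 CPM in primordial DM, 1036 to 8878 CPM in primary control and 374 to 14563 CPM in primary DM, with *Fshr* and *Cyp19a1* at 0 in all 12 libraries. That of 8 stroma markers was from 2545 to 3479, 2165 to 4085, 2648 to 6492 and 2177 to 12531 CPM. That of 6 blood and endothelium markers was from 0.0661 to 609 CPM over the 12 libraries, with *Hbb-bs* and *Hba-a1* at 0 in all. The median summed level of granulosa cell and of stroma markers was above that of oocyte markers in every group, and the part of these markers in the values below was not tested. In such pooled samples, fewer cells of a type and less RNA per cell cannot be told apart.

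The 250 bases before the start of the gene, as the RefSeq table of GRCm38.p6 places it, were available for 9 of the 10 genes. Those of *Ezh1*, *Eed* and *Rbbp4* are shown, since these were the genes whose DM and control libraries did not overlap among those tested. Capitals mark matches on either strand to the letters GGGCGG of the GC box, CCAAT of the CCAAT box, TATAAA of the TATA box and TTTNNCGC of an E2F-type motif. *Ezh1* lies on the minus strand and its sequence covers chr11:101226464-101226713, *Rbbp4* is on the minus strand at chr4:129335371-129335620, and *Eed* is on the minus strand at chr7:89980984-89981226, where 7 bases in its own first exon are left out.
Ezh1: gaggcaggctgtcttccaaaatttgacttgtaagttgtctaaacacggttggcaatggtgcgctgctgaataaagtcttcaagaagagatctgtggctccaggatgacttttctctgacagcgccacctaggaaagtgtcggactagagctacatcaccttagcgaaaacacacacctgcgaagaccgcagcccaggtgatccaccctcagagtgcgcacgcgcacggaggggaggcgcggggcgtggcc
Eed: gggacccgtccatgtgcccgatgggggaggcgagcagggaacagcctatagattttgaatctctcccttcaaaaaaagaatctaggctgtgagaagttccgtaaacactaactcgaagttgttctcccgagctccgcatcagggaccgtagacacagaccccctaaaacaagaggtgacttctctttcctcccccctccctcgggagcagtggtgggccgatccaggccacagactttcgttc
Rbbp4: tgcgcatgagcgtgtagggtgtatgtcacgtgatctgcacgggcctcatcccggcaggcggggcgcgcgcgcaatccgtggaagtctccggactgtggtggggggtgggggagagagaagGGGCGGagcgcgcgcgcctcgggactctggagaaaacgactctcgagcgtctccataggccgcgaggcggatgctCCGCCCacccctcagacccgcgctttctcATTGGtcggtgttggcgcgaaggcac

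The *Ezh1* and *Eed* sequences held none of the 4 motifs, whereas the *Rbbp4* sequence held 2 GC boxes, and 1 CCAAT box on the opposite strand. Over the 9 genes, GGGCGG was found in 6, against 32.7% of all 32851 promoters of the same length, CCAAT in 4 (33.8% of all), TTTNNCGC in 1 (4.28%) and TATAAA in 0 (12.4%). The 3 genes without a GC box were *Ezh1*, *Ezh2* and *Eed*. Their windows are not alike. That of *Ezh2* (chr6:47595031-47595280) lies wholly inside the annotated gene, which on the minus strand starts at base 47595341. Its motif matches are thus not from before that start, and 125 of its 250 bases lie in annotated exons of *Ezh2* itself. All 250 bases of *Eed* lie in annotated exons of the antisense gene *E230029C05Rik* or of *Eed*, whereas the windows of the other 7 genes hold no annotated exon. All 9 windows were rich in CpG, with 12 sites in *Eed* and 37 in *Suz12* at the extremes, whereas the median of all promoters was 6. GC content was from 54.4% in *Eed* to 76.4% in *Rbbp7*.

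Levels differed widely between the genes and between libraries of 1 group. Levels were scaled per kilobase of annotated exon, and whether counts follow exon length in these amplified libraries was not tested. The median level over the 12 libraries was 139 CPM per kb for *Rbbp7*, 41.0 for *Bmi1*, 32.7 for *Ezh2*, 18.4 for *Rbbp4*, 3.54 for *Suz12* and 3.51 for *Ezh1*. It was 0.186 CPM per kb for *Rnf2*, 0.0333 for *Eed*, 0.0125 for *Cbx2* and 0.0118 for *Ring1*. The ranges of all neighbours in this order overlapped. *Rbbp7*, at the top, was the only one of the 10 with at least 100 counts in all 12 libraries. *Ring1* and *Cbx2*, at the bottom, had at most 3 counts in 8 of 12 libraries each, and *Eed* in 5.

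**Figure D1:**
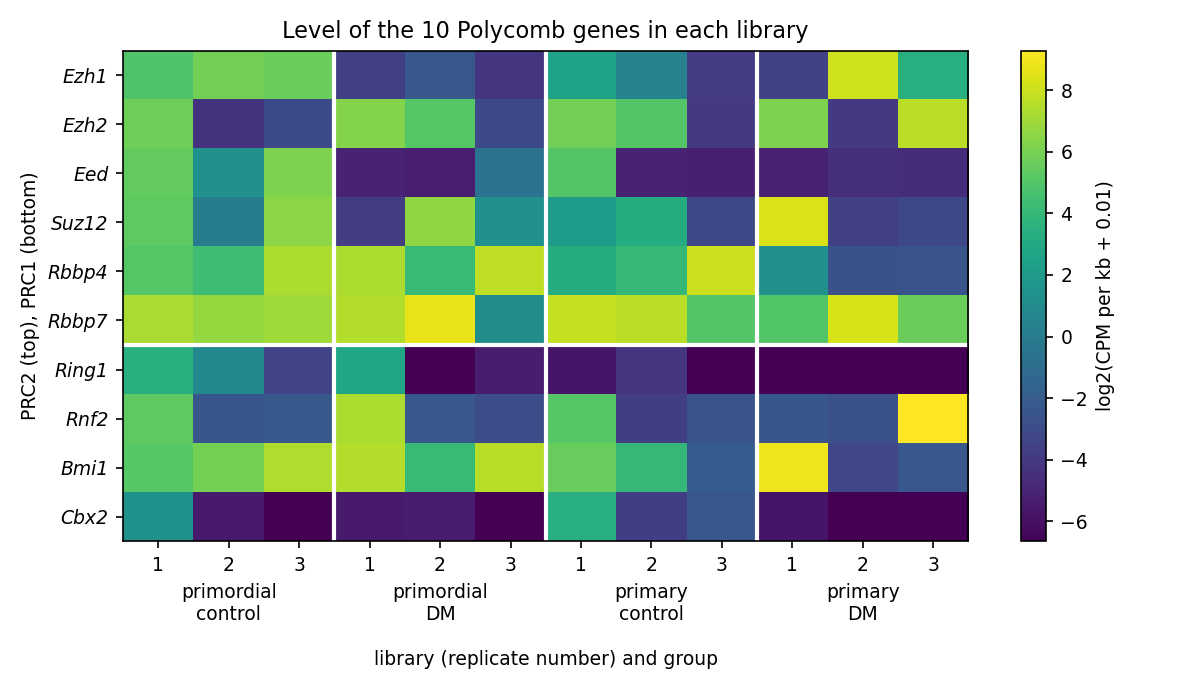
Level of the 10 Polycomb genes in the 12 libraries, as log2 of CPM per kb plus 0.01, with the PRC2 genes in the upper block, the PRC1 genes in the lower block and 3 replicate columns for each of the 4 groups. Most genes show bright and dark cells within 1 group, *Rbbp7* is bright in nearly all columns and *Ring1* and *Cbx2* are dark in most.

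Several genes were either abundant or nearly absent. *Ezh2* had 10 to 16 counts in 5 libraries and 2978 or more in the other 7, with no value between 16 and 2978. *Rnf2* had at most 28 counts in 8 libraries and at least 4784 in the other 4. *Bmi1* had at most 29 counts in 3 libraries and at least 851 in 9. The largest gap between neighbouring counts, on the log2(count + 1) scale, had a median of 4.13 over the 10 genes and of 3.77 over the 8500 genes that passed the filter. The library with the highest value held from 22.8% (*Rbbp7*) to 76.9% (*Cbx2*) of a gene's CPM summed over the 12 libraries. Its median share was 52.2% over the 10 genes and 52.3% over the 8500 genes. The gaps and the reliance on single libraries were therefore close to those of other genes.

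The number of Polycomb genes detected also varied by library. At least 10 counts were reached by a median of 7.5 of the 10 genes in a library (range 6 to 10), and by all 10 in primordial control replicate 1. At least 1000 counts were reached by 9 genes in that library and by 8 in primary control replicate 1. In primary control replicate 3, primordial DM replicate 3 and primary DM replicate 2, 2 genes reached that level. These 3 libraries were among the lower ones for all tested genes too, with 9.06%, 19.8% and 11.2% of the 8500 genes at 1000 counts, against 48.5% in primordial control replicate 1. Of the 120 gene and library values, 54 were at 1000 counts or more (45% against 24.3% for the 8500 genes) and 21 were at 3 counts or fewer (17.5% against 33.2%).

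**Figure D2:**
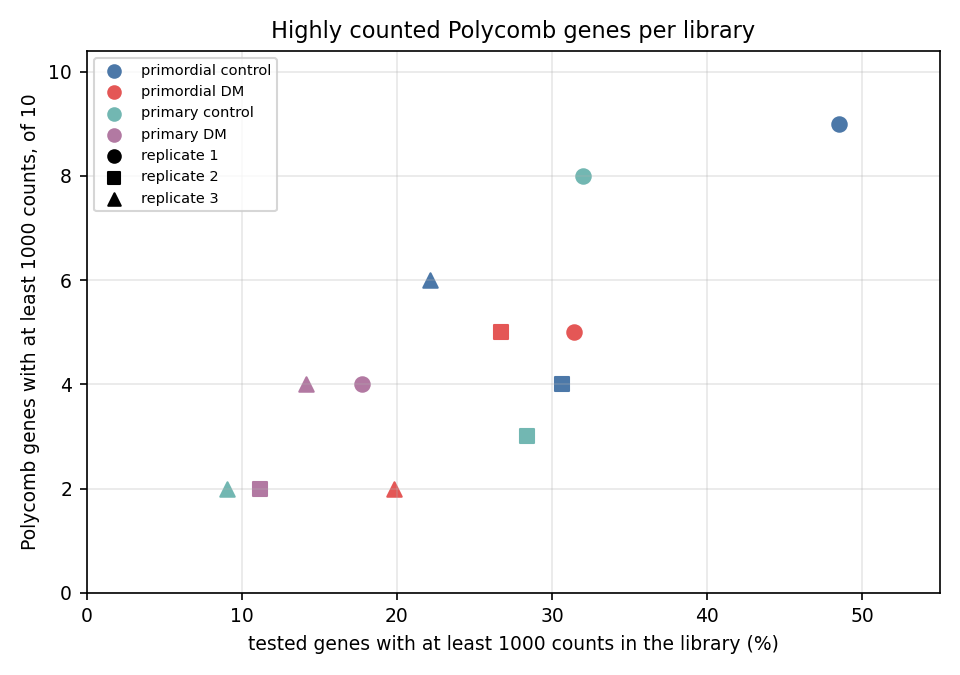
Number of the 10 Polycomb genes with at least 1000 counts in a library (vertical axis) against the percent of the 8500 genes passing the filter with at least 1000 counts there (horizontal axis), with color for the group and symbol for the replicate. Primordial control replicate 1 is at the upper right with 9 genes and 48.5%, and the 3 libraries with 2 genes lie below 20% on the horizontal axis.

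DM was compared with control within each stage to ask whether the drug changed gene expression in oocytes of that stage. Each comparison was made by edgeR's quasi-likelihood test over all genes that passed the filter, with Benjamini-Hochberg adjustment. In primordial follicles, 1 of 6699 tested genes (0.0149%) had an adjusted p under 0.05, and in primary follicles 0 of 4181 (0%). At an unadjusted p under 0.05, 491 genes (7.33%) and 508 genes (12.2%) passed. DESeq2 called 660 of the 16334 genes it fitted in primordial follicles, of which 10316 had no adjusted p. In primary follicles it called 571 of 14026, of which 9757 had none. Of the Polycomb genes other than *Ezh1*, 8 could be tested in primordial follicles and 6 in primary follicles, and 0 were called in either stage by edgeR. DESeq2 gave an adjusted p for 7 of these 8 and for 2 of these 6 (*Ezh2* and *Rbbp7*), with 0 called among them, and for the others it gave none. Values that pass no test are therefore given below as measurements.

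The catalytic subunit *Ezh1* (ENSMUSG00000006920, chr11:101191115-101226463, minus strand) separated the primordial groups. The primordial control libraries had 8307, 16156 and 5700 counts and the primordial DM libraries 20, 49 and 7. All 3 control libraries were thus above all 3 DM libraries, with 344 ± 112 CPM (SD, n = 3) against 0.753 ± 0.572 CPM. The fitted log2 fold change was -8.43 with a standard error (SE) of 3.53, and it stayed between -9.25 and -7.96 when each library was left out in turn. A lower level without overlap was seen for 11.0% of the 6699 tested genes in this comparison, which is 1 of the 2 that make up the stage-dependent response *Ezh1* was noted for, so nothing is read from it.

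In primary follicles, the *Ezh1* counts were 1439, 140 and 14 in control and 15, 88446 and 2726 after DM. The highest and next highest values belonged to DM libraries, but DM replicate 1 lay beside control replicate 3, so the groups overlapped. The mean was 17.6 ± 21.9 CPM in control and 718 ± 1176 CPM after DM (SD, n = 3), an SD above the mean in both. The log2 fold change was 7.74 (SE 3.84), and without 1 library it ranged from 3.20 to 9.32. The difference between the stages in the log2 fold change, fitted over all 12 libraries as an interaction, was 16.37 (SE 4.40), with a range of 11.56 to 18.20 when 1 library was left out. These numbers describe the pattern for which *Ezh1* was picked and carry no p.

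*Ezh2* (ENSMUSG00000029687), the other catalytic subunit, did not separate the groups. Its counts were 13972, 10 and 11 in primordial control and 20312, 7831 and 15 in primordial DM. In primary follicles they were 13699, 2978 and 11 in control and 13731, 16 and 47253 after DM. Every group held at least 1 library at or under 16 counts and at least 1 at or above 13699 counts. DM against control gave a log2 fold change of 2.05 (SE 2.61, edgeR adjusted p = 0.870) in primordial and 3.36 (SE 3.28, adjusted p = 0.584) in primary follicles.

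**Figure D3:**
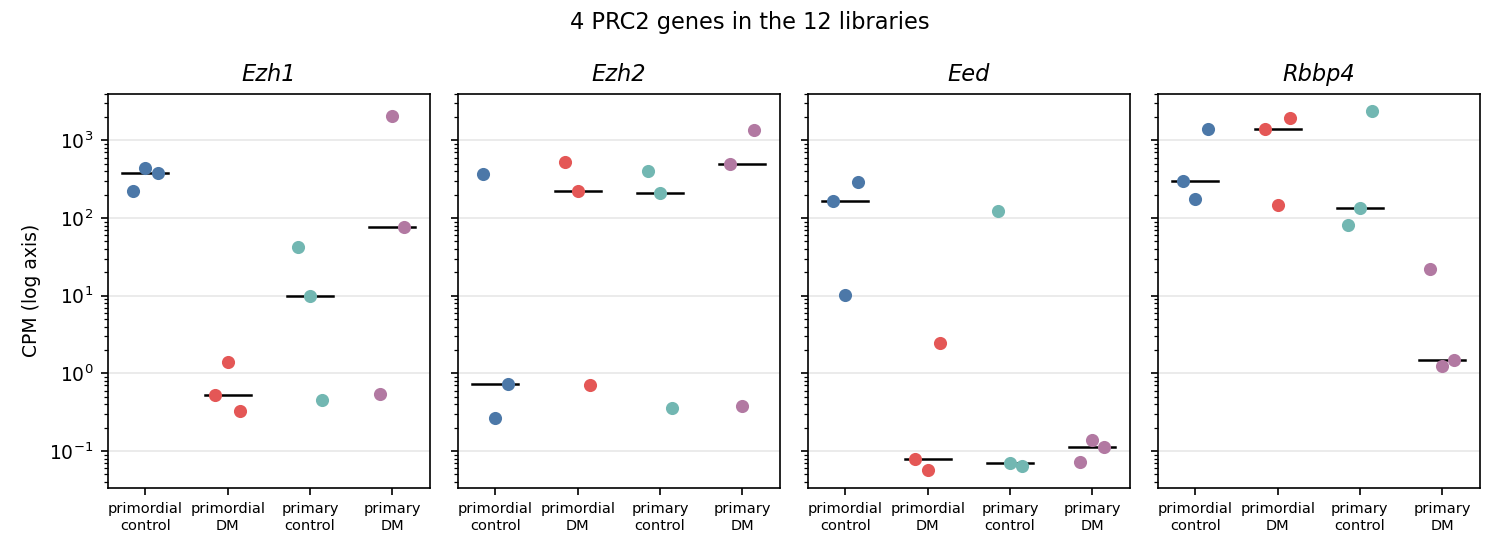
CPM on a log axis of the PRC2 genes *Ezh1*, *Ezh2*, *Eed* and *Rbbp4* in the 3 libraries of each group, 1 point per library, with a bar at the median. *Ezh1* and *Eed* show no overlap between primordial control and primordial DM, *Rbbp4* shows none between primary control and primary DM, and *Ezh2* overlaps in both stages.

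Since EZH1 and EZH2 can replace each other in the complex, their levels per kilobase were set side by side in each library. *Ezh1* exceeded *Ezh2* in 4 libraries and *Ezh2* exceeded *Ezh1* in 8. *Ezh1* made up 99.9% and 99.8% of the pair's summed level in primordial control replicates 2 and 3 and 34.8% in replicate 1. In primordial DM it made up 0.0883% and 0.558% in replicates 1 and 2, and in replicate 3 both genes were under 100 counts. Both genes reached 100 counts in 4 libraries, *Ezh1* alone in 3, *Ezh2* alone in 3 and neither in 2, namely primordial DM replicate 3 and primary control replicate 3.

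*Rbbp7* exceeded *Rbbp4* in 9 of 12 libraries, and in 10 libraries both reached 100 counts. *Rnf2* exceeded *Ring1* in 11 of 12 libraries, but both reached 100 counts in 2 and neither did in 7. *Bmi1* exceeded its paralog *Pcgf2* in all 12, with both at 100 counts in 5 and neither in 3.

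**Figure D4:**
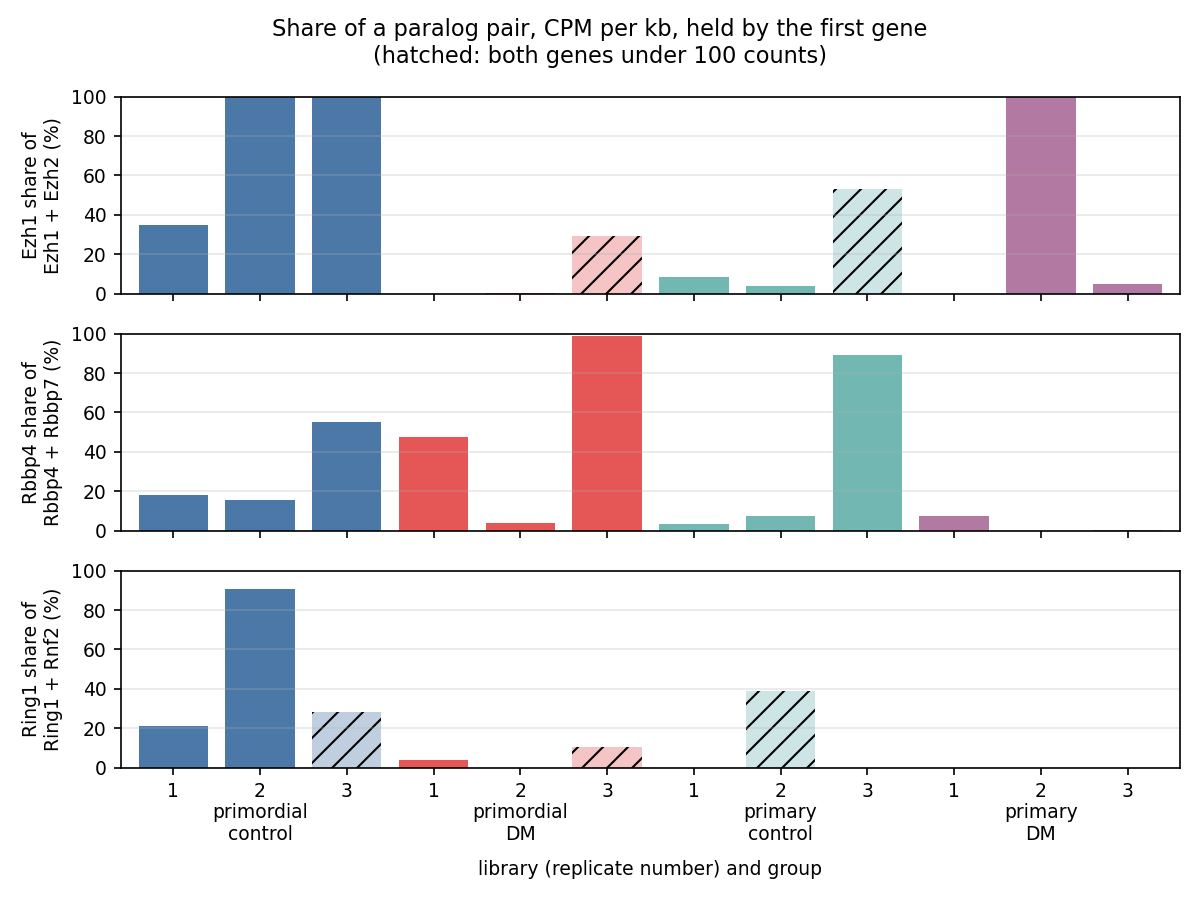
Percent of the summed CPM per kb of a paralog pair that the first gene held in each of the 12 libraries, for *Ezh1* with *Ezh2*, *Rbbp4* with *Rbbp7* and *Ring1* with *Rnf2*; hatched bars mark libraries where both genes had under 100 counts. *Ezh1* holds nearly all of its pair in primordial control replicates 2 and 3 and in primary DM replicate 2 and under 1% in primordial DM replicates 1 and 2.

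*Eed* (ENSMUSG00000030619, chr7:89954654-89980983, minus strand), the subunit that binds the methyl mark, was the other gene with separate primordial groups. Its counts were 6324, 379 and 4344 in primordial control and 3, 2 and 52 in primordial DM. The lowest control library was thus above the highest DM library, at 10.2 CPM against 2.47 CPM. The log2 fold change was -6.65 (SE 3.80), which did not pass the test (edgeR p of 0.0797, adjusted p = 0.658), and it was between -10.53 and -5.54 without 1 library. Leaving out *Ezh1*, 1 of 8 Polycomb genes that passed the filter was lower without overlap, beside 11.0% of all tested genes, and 0 of 8 were higher without overlap, beside 2.06%. In primary follicles, *Eed* had 4248, 1 and 2 counts in control and 2, 6 and 4 after DM. A single control library held nearly all of these counts, and the filter removed the gene. The exons of *Eed* share bases with those of the antisense gene *E230029C05Rik*, which had 0 counts in all 12 libraries.

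*Suz12* (ENSMUSG00000017548), the PRC2 subunit that holds the complex together, had 7572, 195 and 6916 counts in primordial control and 12, 17211 and 275 in primordial DM. The primary control libraries had 748, 642 and 15 counts and the primary DM libraries 46870, 15 and 17. The groups overlapped in both stages, and the mean in primary DM rested on replicate 1. Its log2 fold change was 0.20 (SE 2.42, edgeR adjusted p = 0.989) in primordial and 5.81 (SE 3.80, adjusted p = 0.438) in primary follicles, and the latter became -3.41 without primary DM replicate 1.

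*Rbbp4* (ENSMUSG00000057236, chr4:129307100-129335370, minus strand), a histone-binding subunit, showed its separation in primary follicles. The counts were 2761, 1914 and 73239 in primary control and 615, 53 and 52 in primary DM. The control libraries were all above the DM libraries, with 81.0, 136 and 2354 CPM against 22.4, 1.24 and 1.48 CPM. The log2 fold change was -7.90 (SE 3.78), with an edgeR p of 0.0367 and an adjusted p of 0.396, so the difference did not pass the test. Without primary control replicate 3 it was -2.13, the smallest change when 1 library was left out. *Rbbp4* was the only 1 of the 6 genes tested in primary follicles, *Ezh1* left out, that was lower without overlap, beside 11.8% of the 4181 tested genes, and 0 were higher without overlap, beside 1.27%. In primordial follicles, *Rbbp4* had 11201, 6483 and 20845 counts in control and 54034, 5102 and 40266 after DM. All 6 of these libraries were at or above 5102 counts, the groups overlapped, and the log2 fold change was 1.41 (SE 1.39, edgeR adjusted p = 0.823).

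The interaction of stage and DM for *Rbbp4* was -9.09 (SE 3.57), with an edgeR p of 0.0110 and an adjusted p of 0.167. No gene of the 8500 tested (0%) passed an adjusted p under 0.05 for the interaction, and 1605 (18.9%) had an unadjusted p under 0.05. DESeq2 called 571 of 17728 genes, of which 12342 had no adjusted p. *Rbbp4* was the only 1 of the 9 Polycomb genes tested here with an unadjusted p under 0.05. Its value stayed between -11.22 and -3.54 without 1 library.

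*Rbbp7* (ENSMUSG00000031353), the paralog of *Rbbp4* on the X chromosome, was the gene whose highest library held the smallest share of its summed CPM. The counts were 16696, 11773 and 5585 in primordial control and 19625, 43203 and 144 in primordial DM. In primary follicles they were 23774, 8104 and 2958 in control and 2482, 40251 and 5052 after DM. Primordial control was the group with the smallest relative spread, at 376 ± 62.1 CPM (SD, n = 3), and primordial DM replicate 3 was the lowest library. For DM against control the log2 fold change was 1.14 (SE 1.80, edgeR adjusted p = 0.901) in primordial and 1.72 (SE 3.04, adjusted p = 0.772) in primary follicles. The processed pseudogene *Gm6382* matches 942 bases of *Rbbp7* at 97.1% identity and reached 100 counts in 1 library, so a part of the reads could be assigned to either. The antisense gene *Txlng*, which shares exon bases with it, had 2 to 34206 counts.

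The PRC1 ubiquitin ligase *Ring1* (ENSMUSG00000024325) reached 10 counts in 3 libraries, all from primordial follicles. The counts were 1330, 220 and 4 in primordial control and 811, 0 and 1 in primordial DM. The primary control libraries had 1, 2 and 0 counts and the primary DM libraries 0, 0 and 0. A count of 0 allows up to 3 counts, or 0.0704 to 0.109 CPM over the primary libraries with 0. These limits cover counting error only, since amplified reads without molecular identifiers are not independent molecules. The primordial groups overlapped, with a log2 fold change of -0.23 (SE 2.72, edgeR adjusted p = 0.989) that turned to 0.30 with DESeq2's size factors. In primary follicles the filter removed the gene.

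Its paralog *Rnf2* (ENSMUSG00000026484) had 6202, 28 and 13 counts in primordial control and 25105, 27 and 11 in primordial DM. Primary control gave 4784, 4 and 21 counts and primary DM 21, 26 and 90008. Each of the 4 groups thus held 1 library at or above 4784 counts and 2 libraries at 28 counts or fewer. Its log2 fold change was 2.92 (SE 2.89, edgeR adjusted p = 0.823) in primordial and 6.02 (SE 3.61, adjusted p = 0.408) in primary follicles. Both depended on 1 library, since without primordial DM replicate 1 the first was -5.13 and without primary DM replicate 3 the second was -4.12.

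*Bmi1* (ENSMUSG00000026739), the PCGF partner of the ligases in canonical PRC1, was abundant in all primordial libraries. Its counts were 5213, 8977 and 9967 in primordial control and 26211, 2339 and 15877 in primordial DM. In primary follicles they were 6401, 851 and 29 in control and 51590, 16 and 26 after DM. All 6 primordial libraries were at or above 2339 counts, whereas 3 of the 6 primary libraries were at or under 29. The log2 fold change was 0.96 (SE 1.83, edgeR adjusted p = 0.928) in primordial and 4.01 (SE 3.47, adjusted p = 0.535) in primary follicles, and the latter was -5.04 without primary DM replicate 1. A pseudogene, *Gm5946*, matches 2658 bases of *Bmi1* at 97.0% identity and had at most 878 counts in a library.

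*Cbx2* (ENSMUSG00000025577), the chromobox reader, had 462, 2 and 0 counts in primordial control and 2, 2 and 0 in primordial DM. Primary control gave 1528, 4 and 25 counts and primary DM 1, 0 and 0. Replicate 1 of each control group held most of its counts, and those are the 2 libraries with the most Polycomb genes at 1000 counts. The primary groups did not overlap, but the filter removed the gene in both stages, so the main fit made no test. For DM in primary follicles it passed the filter in 4 fits without 1 library, with log2 fold changes from -10.96 to -8.23. Its adjusted p there ranged from 0.0612 to 0.551 over the edgeR and DESeq2 alternatives that tested it. The interaction over all 12 libraries, where it passed the filter, was -3.20 (SE 4.503, edgeR adjusted p = 0.713).

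**Figure D5:**
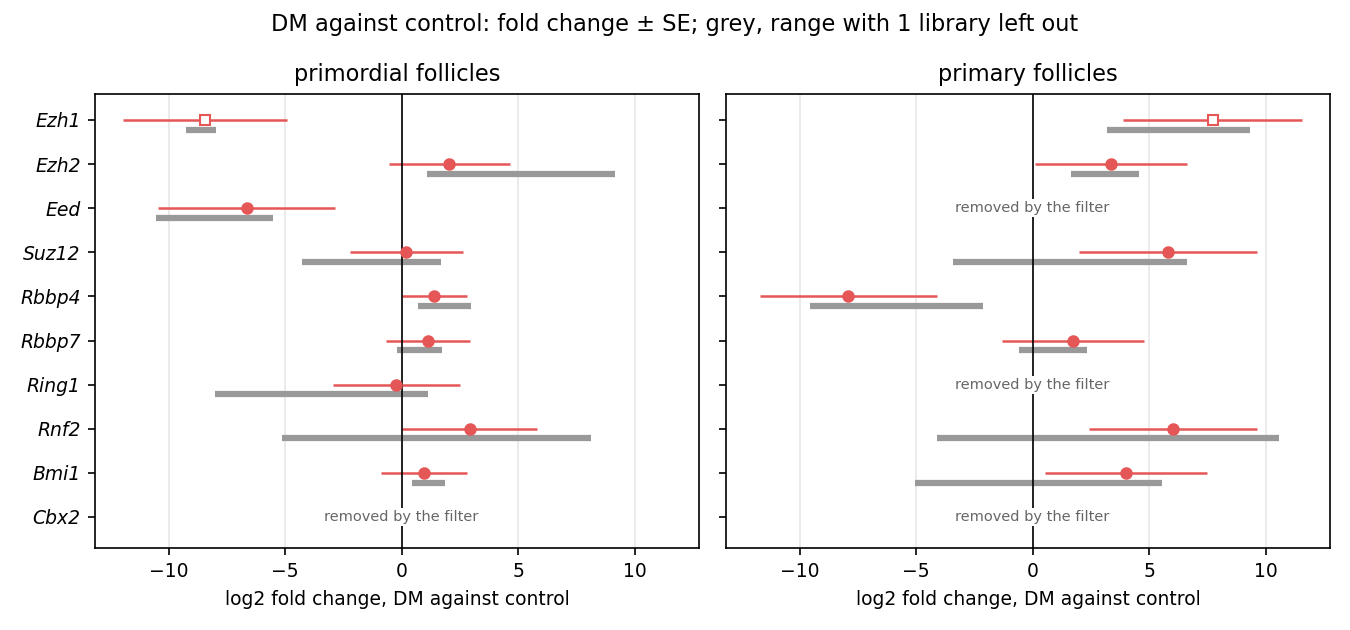
Log2 fold change of DM against control with its SE for the 10 Polycomb genes in primordial (left) and primary follicles (right); grey bars span the values when 1 library is left out, and the open square marks *Ezh1*, which has no test. The values of *Ezh1* and *Eed* in primordial and of *Rbbp4* in primary follicles lie below 0 with their whole grey bars, *Ezh1* in primary follicles lies above 0, and the grey bars of *Suz12* and *Rnf2* cross 0 in both stages.

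Without *Ezh1*, the filter left 8 Polycomb genes in primordial follicles, and their fitted level was higher after DM for 6 and lower for 2, with a median log2 fold change of 1.05, beside 0.13 for all tested genes. Among the 6 in primary follicles, a higher level was fitted for 5 and a lower one for 1, and the median was 3.68 beside 0.31. None of these differences passed the test. With library size alone, *Suz12* turned to lower in primordial and *Rbbp7* to lower in primary follicles. The median of all tested genes moved with the scaling, to 0.56 and 2.04 with DESeq2's size factors and to -0.43 and -0.96 with library size alone, so each fold change is relative to it. The interaction of the other genes did not pass the test either, with 6.13 (SE 3.82, edgeR adjusted p = 0.355) for *Suz12*, 3.35 (SE 3.50, adjusted p = 0.600) for *Bmi1* and 3.16 (SE 3.39, adjusted p = 0.610) for *Rnf2*. For *Ezh2*, *Rbbp7* and *Eed* it was 1.54, 0.86 and 0.14, each with an SE above 3.2, and for *Ring1* it was -3.01 (SE 3.83).

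Primary follicles were also compared with primordial follicles under each treatment. Among controls, 0 of 6726 tested genes (0%) had an adjusted p under 0.05 by edgeR, and 433 (6.44%) an unadjusted p under 0.05. DESeq2 called 278 of 16296 genes, of which 10905 had no adjusted p. *Ezh1* was lower in all primary than in all primordial control libraries, with a log2 fold change of -4.25 (SE 2.77), beside 8.46% of tested genes that were lower without overlap. Of the other 8 Polycomb genes that passed this filter, 0 were lower and 0 higher without overlap, the latter beside 1.23% of tested genes. *Ring1* also did not overlap, with at most 2 counts in primary against at least 4 in primordial control, and was removed by the filter. It passed in 4 fits without 1 library, with log2 fold changes from -8.35 to -7.11. Its adjusted p ranged from 0.0651 to 0.968 over the edgeR and DESeq2 alternatives that tested it. *Suz12* had 221 ± 227 CPM in primordial and 22.7 ± 22.6 CPM in primary control (SD, n = 3), with a log2 fold change of -3.30 (SE 2.82, edgeR adjusted p = 0.856). For *Bmi1* it was -2.05 (SE 2.48, adjusted p = 0.915), for *Rbbp4* 2.71 (SE 2.17, adjusted p = 0.839) and for *Cbx2* 2.62 (SE 3.06, adjusted p = 0.913). The other 4 genes were between -1.64 (*Eed*) and 1.22 (*Ezh2*), with edgeR adjusted p from 0.963 to 0.988.

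Among DM libraries, 0 of 4331 tested genes (0%) had an adjusted p under 0.05 by edgeR, and 746 (17.2%) an unadjusted p under 0.05. DESeq2 called 911 of 14049 genes, of which 9277 had no adjusted p. *Rbbp4* was lower in all primary DM than in all primordial DM libraries, at 8.36 ± 12.1 CPM against 1158 ± 911 CPM (SD, n = 3). The log2 fold change was -6.35 (SE 3.44, edgeR adjusted p = 0.311), and 17.0% of tested genes were lower without overlap. It was the only 1 of the 6 genes tested, *Ezh1* left out, to be lower without overlap, and 0 were higher, beside 1.45%. DESeq2 gave an adjusted p for 4 of these 6 genes and called 1, *Rbbp4* (adjusted p = 0.0486), beside its 911 calls over all genes. Among the 9 core genes other than *Ezh1*, this was the only call that the tools and settings gave. The adjusted p of *Rbbp4* in this comparison ranged from 0.0486 to 0.977 over all alternatives. *Ezh1* overlapped between these groups because of primary DM replicate 1, with a log2 fold change of 12.02 (SE 3.96). The other 5 genes tested were between 0.92 (*Bmi1*) and 3.60 (*Rnf2*), with edgeR adjusted p from 0.496 to 0.872. The DM libraries of each stage enter this comparison and that of DM with control in the same stage, so the values of *Rbbp4* and *Ezh1* share libraries. For *Rbbp4*, the same primary DM libraries, at 615, 53 and 52 counts, enter this difference, that of DM with control in primary follicles and the interaction.

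The genes that work beside the core were looked at as a list of 44 Polycomb and Trithorax genes from textbook knowledge, of which 43 were matched in the table. Of these, 33 could be tested in primordial and 25 in primary follicles for DM against control, 36 for the interaction, and 32 and 27 for the stages under control and DM. By edgeR 0 were called in each. At an unadjusted p under 0.05, the list held 1 higher gene (2.48% of all tested) and 2 lower genes (4.85%) in primordial follicles. In primary follicles it held 3 higher (4.04% of all tested) and 2 lower (8.11%), and for the interaction 5 higher (9.11%) and 5 lower (9.78%). Without overlap, 1 was higher and 4 lower (*Pcgf6*, *Bcorl1*, *Asxl1* and *Scmh1*) in primordial follicles, beside 2.06% and 11.0% of all tested genes. In primary follicles 0 were higher and 4 lower (*Jarid2*, *Phf1*, *Phc1* and *Usp7*), beside 1.27% and 11.8%. The median log2 fold change of the list was 0.03 in primordial and -0.08 in primary follicles, beside 0.13 and 0.31 for all tested genes.

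*Kdm6a*, a demethylase that removes the mark PRC2 makes, was the gene of the list that was higher without overlap in primordial DM. It had 27404, 216 and 1823 counts in primordial control and 36798, 34887 and 47542 in primordial DM, with no overlap in CPM and a log2 fold change of 3.42 (edgeR adjusted p = 0.658). *Pcgf6*, the PCGF protein of a variant PRC1, was lower, with 299, 1095 and 414 counts in control and 0, 1 and 0 after DM (edgeR adjusted p = 0.605). The other gene lower at an unadjusted p under 0.05 was *Bcorl1*, with 343, 9281 and 459 counts and then 9, 17 and 1 (edgeR adjusted p = 0.658). Also lower without overlap were *Asxl1*, with 25951, 28832 and 9361 counts and then 3276, 145 and 15 (edgeR adjusted p = 0.658), and *Scmh1*. The latter had 3276, 7310 and 3087 counts and then 718, 556 and 466 (edgeR adjusted p = 0.855). Of the 5 PRC2 accessory genes tested in primary follicles, 2 had a higher and 3 a lower fitted level after DM. The middle log2 fold change of these 5, -6.27, was that of *Jarid2*, beside a median of 0.31 for all tested genes. It was the most extreme median among the parts of the list. The others were 2.92 (canonical PRC1, 3 genes), 1.97 (Trithorax, 4), -0.37 (H3K27 demethylases, 2), -1.77 (PR-DUB, 3) and -1.98 (variant PRC1, 8). Of the 5 accessory genes, 2 were lower without overlap, beside 11.8% of all tested genes. These were *Jarid2*, with 8887, 5822 and 82432 counts in control and 21, 439 and 1482 after DM (log2 fold change -6.27, edgeR adjusted p = 0.397), and *Phf1*, with 3114, 1149 and 36757 counts and then 5, 308 and 9 (-7.49, adjusted p = 0.396). The fitted log2 fold change of *Aebp2*, whose groups overlapped, was -7.78 (edgeR adjusted p = 0.396). On the other side, *Mtf2* had 43, 8 and 11 counts in primary control and 3611, 35825 and 15 after DM. Its groups overlapped, with a log2 fold change of 10.28 (SE 4.54, edgeR adjusted p = 0.395). *Lcor* had 28503, 1527 and 111 counts and then 92, 653843 and 138. Its groups overlapped too, with a log2 fold change of 6.43 (SE 2.91, edgeR adjusted p = 0.395). *Phc1* of canonical PRC1 had 77, 4547 and 33624 counts in primary control and 3, 93 and 9 after DM, with no overlap in CPM and a log2 fold change of -9.02 (SE 4.23, edgeR adjusted p = 0.395).

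Hox genes, the classical genes that Polycomb keeps silent, were counted as a further readout. Of 39 Hox genes, 22 had 0 counts in all 12 libraries, and 17 had at least 10 counts in at least 1 library. The counts sat in few libraries, as with *Hoxb4*, which had 196725 of its 197066 counts in primary DM replicate 1. That library had 2 counts of *Eed* and 0 of *Ring1*, but 46870 of *Suz12* and 51590 of *Bmi1*. Whether Hox counts and Polycomb levels are linked was not tested.

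The genes with a pattern over the 12 libraries most like that of *Ezh1*, by Pearson's r of log2(CPM + 1) among 8499 other genes, were *Dclk2* (r = 0.918), *Phf10* (r = 0.861) and *Gm14303* (r = 0.861). These were the highest of 8499 values and share depth and library with *Ezh1*, so r is a description. *Dclk2* had 7369, 16666 and 2653 counts in primordial control and 7, 14 and 10 in primordial DM. *Phf10*, a subunit of a chromatin remodelling complex, had 4462, 8011 and 906 counts and then 33, 57 and 3. Both also had their highest count in primary DM replicate 2, the deepest library, where *Ezh1* had its own highest value. In CPM this held for *Dclk2*, whereas *Phf10* was highest in primordial control replicate 2.

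The Polycomb genes did not vary as 1 group across libraries. Over their 45 pairs, r of log2(CPM + 1) had a median of 0.15 and ranged from -0.45 (*Ezh1* with *Rbbp4*) to 0.66 (*Ezh2* with *Rnf2*), each over 12 libraries that share depth and detection. *Ezh2* and *Rnf2* were both at or above 4784 counts in replicate 1 of primordial control, primordial DM and primary control and in replicate 3 of primary DM. *Suz12* and *Bmi1* both had their highest value in primary DM replicate 1.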

How the data were processed

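Per the labels and the study's methods, the authors trimmed the reads with Trim Galore, mapped them to mm10 (the build GRCm38), assigned them to genes with featureCounts and deposited the raw counts, not normalized. The methods name TopHat2 as the aligner, whereas the submitters' processing notes name STAR. Whether counting used strand is not given in the sources used here, so genes with overlapping exons on opposite strands cannot be told apart there: this concerns *Ezh2*, *Eed*, *Suz12*, *Rbbp4*, *Rbbp7* and *Rnf2*. The labels name a TruSeq RNA Access kit after linear amplification, and the study's methods also name Smart-seq II for the collected oocytes.

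All 12 columns were mapped to a sample by name. A symbol was found for 55141 of 55401 gene identifiers, and positions and exon lengths came from an annotation of GRCm38. Between libraries of 1 group, chi-square divided by its degrees of freedom was at least 1588, so none was taken as a duplicate. The study describes the 3 libraries per group as biologically independent.

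Counts were tested with edgeR 4.0.16 in R 4.3.3 (filterByExpr, TMM, quasi-likelihood F test, prior count 0.125) on the 6 libraries compared, or all 12 for the interaction, with Benjamini-Hochberg adjustment over all genes tested and a threshold of 0.05. SE is the log2 fold change divided by the root of F. Groups were called free of overlap from CPM. The code was tested on simulated counts that varied far less than these libraries, which does not measure its power here. DESeq2 1.42.0, other scalings, filters and prior counts, a replicate block and leaving out each library were alternatives. Library size alone was added after the values had been seen. The 10 genes are all named. They, the other gene lists, and the tests were chosen with earlier results of these data known. Genes named from the other Polycomb and Trithorax list, and genes outside the lists, were named after their values were seen. Similar transcripts were sought with BLAST at 90% identity or more over at least 200 bases.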

Additional observations from a re-analysis of the deposited data

How the results depend on the processing

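The biological coefficient of variation was 1.76 to 1.90. Genes called with DESeq2 in place of edgeR were 660 (DM in primordial follicles), 571 (DM in primary follicles), 571 (interaction), 278 (stages, control) and 911 (stages, DM), and with an unadjusted p 491, 508, 1605, 433 and 746. The 1 gene called in primordial follicles became 0 with DESeq2's size factors in edgeR, no filter, 10 counts in every library, the replicate block, library size alone or all 12 libraries in 1 fit. In the control stages 4 genes were called with 10 counts in every library and 1 with library size alone. Leaving out 1 library gave 0 to 3 calls for DM in primordial follicles, the 3 without primordial DM replicate 1, and 0 to 4 for the stages under DM, the 4 without primary DM replicate 2. Of the 9 core genes other than *Ezh1*, *Rbbp4* was the 1 called by DESeq2 (stages under DM, where 4 had an adjusted p). It was also the 1 with an unadjusted p under 0.05 by edgeR for DM in primary follicles and for the interaction. Genes detected per library had a median of 5.5 at 100 counts and 6 at 1 CPM, against 7.5.

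Of 355 log2 fold changes under alternatives other than leaving out a library, 339 kept direction with no change of call and 15 turned direction, and the cause was not tested. DESeq2 gave no adjusted p for 11 of the 37 values without *Ezh1*, so no call could be compared there. With library size alone, *Suz12* became -0.40 (DM, primordial), *Rbbp7* -0.34 (DM, primary), -0.86 (interaction) and -0.68 (stages, DM), *Eed* -1.04 (interaction) and *Rnf2* -0.25 (stages, control). With DESeq2, *Ring1* became 0.37 (DM, primordial) and 0.18 (interaction), and 0.30 (DM, primordial) with its size factors in edgeR. With 10 counts in every library, *Suz12* became -0.12 (DM, primordial). With the replicate block, *Suz12* became -4.20 (DM, primordial), -0.36 (DM, primary) and -3.29 (stages, DM), and *Bmi1* -0.80 (DM, primary) and -4.91 (stages, DM). What same-numbered libraries share beyond the number is not given in the labels. Their deviations from the group means correlated by less than 0.1, which in libraries this variable does not settle it. The block called 0 genes in each comparison.

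Leaving out 1 library turned the direction of 23 of 42 log2 fold changes. For DM in primordial follicles the ranges were -0.19 to 1.73 (*Rbbp7*), -7.99 to 1.13 (*Ring1*), -5.13 to 8.13 (*Rnf2*) and -4.25 to 1.70 (*Suz12*). For DM in primary follicles they were -5.04 to 5.55 (*Bmi1*), -0.57 to 2.34 (*Rbbp7*), -4.12 to 10.58 (*Rnf2*) and -3.41 to 6.61 (*Suz12*). For the interaction they were -5.92 to 4.83 (*Bmi1*), -1.11 to 7.64 (*Eed*), -5.64 to 2.81 (*Ezh2*), -1.82 to 2.01 (*Rbbp7*), -4.09 to 4.68 (*Ring1*), -7.19 to 11.23 (*Rnf2*) and -3.48 to 10.27 (*Suz12*). For the stages under control they were -0.32 to 8.83 (*Cbx2*), -0.037 to 8.54 (*Ezh2*), -2.60 to 4.30 (*Rbbp4*) and -4.32 to 5.90 (*Rnf2*), and under DM -8.25 to 1.58 (*Bmi1*), -1.14 to 2.70 (*Rbbp7*), -6.72 to 11.74 (*Rnf2*) and -6.96 to 6.82 (*Suz12*).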
